A study of Mus musculus with 9 samples.

Results

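Gene expression was compared between 3 triploid and 3 tetraploid clones of p53-/- mouse embryonic cells. Each clone was one RNA sample on one single-colour Agilent array, and these 6 arrays belong to a set of 9 whose other 3 hold diploid clones. The clones were assigned to their group by the ploidy in the sample title. All 9 clones carry the p53-/- genotype in the sample characteristics, were grown untreated in minimum essential medium with fetal bovine serum, and differ, as far as the labels go, only in ploidy. Each replicate is a separately numbered clone; nothing states whether clones came from separate embryos, so the p-values measure the spread between these clones. The free-text descriptions number the deleted gene upwards from p53 over the samples, while the genotype field gives p53-/- for every one.

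A triploid cell holds 3 sets of chromosomes and a tetraploid cell 4, so that every gene dose changes together while the balance between chromosomes is kept if no chromosome is gained or lost. p53, encoded by Trp53, is a transcription factor that halts or kills cells after DNA damage or failed division, and cells that lack it tolerate extra chromosome sets more readily. HOX genes, which appear below, encode homeobox transcription factors laid out in 4 clusters in the order in which they act along the body, and fibroblasts keep in culture the HOX pattern of the place they came from.

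Between 44.8 and 50.9% of the spots on the 6 arrays were well above background and no spot was saturated; the precision is limited by the number of arrays. Triploid clones 2 and 3 were the most alike (r = 0.986 over the features tested, a description across features), triploid clone 1 correlated with them at 0.953 and 0.960, the tetraploid clones with each other at 0.961 to 0.981, and triploid with tetraploid clones at 0.912 to 0.959. Trp53 was not well above background on any of the 6 arrays; whether its probe lies in the deleted part is not given in the sources used here. Sex chromosome genes differed between the clones: Ddx3y and Eif2s3y, Y-linked genes, were well above background in tetraploid clones 1 and 2 and in no other of the 6, and Xist, the RNA that coats the inactive X chromosome, in triploid clones 1 and 2 and tetraploid clone 3. Triploid clone 3 had neither. Signal of these Y-linked genes was thus found only in the tetraploid group, and the part of sex chromosome content in the results was not tested. Most mesenchymal markers were shared, with 12 of 14 fibroblast and mesenchyme markers well above background on all 6 arrays (summed level, in units of the array's 75th percentile, 1171 to 2654 in triploid and 2438 to 3026 in tetraploid clones). The exceptions were Lum, above background in no triploid clone and every tetraploid clone, and Thy1, above it in 2 clones of each group. Not well above background on any of the 6 arrays were 3 of 6 epithelial markers (Cdh1, Epcam, Cldn6), 3 of 5 of blood (Ptprc, Adgre1, Spi1), 2 of 5 of endothelium (Cdh5, Emcn) and 4 of 5 of muscle (Myod1, Myog, Des, Actc1), while Cldn7 of epithelium, Pecam1 and Kdr of endothelium and Csf1r of macrophages were above it on all 6. So were 3 of 6 neural and glial markers (Sox10, Tubb3, Nes), Nanog of 4 pluripotent markers and Prl3d1 of 5 trophoblast markers. In these last sets 1, 2 and 4 markers were above background on no array. The mesothelial markers Wt1, Upk3b and Lrrn4 separated triploid clones 2 and 3 from the rest: Wt1 read 5.85 and 5.39 in these and -5.71 in triploid clone 1, and -5.75, -5.52 and -6.62 in the tetraploid clones. The summed level of 5 mesothelial markers was 4.40, 141 and 93.7 in triploid clones and 46.9, 95.4 and 51.8 in tetraploid ones, so triploid clone 1 was the low one. Wt1, Upk3b and Lrrn4 did not reach the filter of the comparison below, and the part of mesothelial character in its results was not tested.

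Levels are given as log2 signal minus the array's own 75th percentile, and a difference is the triploid mean minus the tetraploid mean. A feature, which is a gene represented by its brightest probe or a probe without a gene symbol, was tested where its signal was clear of background in all triploid clones, all tetraploid clones or both, and was called at a Benjamini-Hochberg adjusted p under 0.05 in limma. Of 21023 features tested, 702 (3.34%) were called, 284 (1.35%) higher and 418 (1.99%) lower in triploid clones. Among the 12134 named genes, 141 were higher and 350 lower. The differences were large: 418 called features differed by more than 4-fold and 152 by more than 16-fold. In 61 called features the signal was not well above background in any tetraploid clone, and in 94 in no triploid clone. The 3 values of each group did not overlap in any of the 702 called features, nor in 5576 (26.5%) of all features tested. All features together had a median difference of 0.17, which became -0.09 when arrays were centred on the median; medians of gene groups below are therefore given relative to all features, and with that centring 164 features were higher and 456 lower, so the share of calls that were higher went from 40.5 to 26.5%.

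How many features were called depended on which clone entered the fit. Leaving out triploid clone 1, which on 61.1% of the called features (39.9% of all) was the triploid clone nearest to the tetraploid group, raised the count to 1675, and leaving out tetraploid clone 2 raised it to 1122. Without triploid clone 2 or 3, or tetraploid clone 1 or 3, it was 180, 162, 216 and 179, and without diploid clone 1 it was 416. In each of the 9 fits that left out 1 clone, 108 of the 702 features were called, 39 higher and 69 lower, 72 of them named genes. Below, a call is said to be held where it passed in all 9 of these fits, and otherwise, for a gene given with its own p, the highest adjusted p among them follows with the clone left out. A gene is called dark in a clone where its probe was not well above background.

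**Figure D1:**
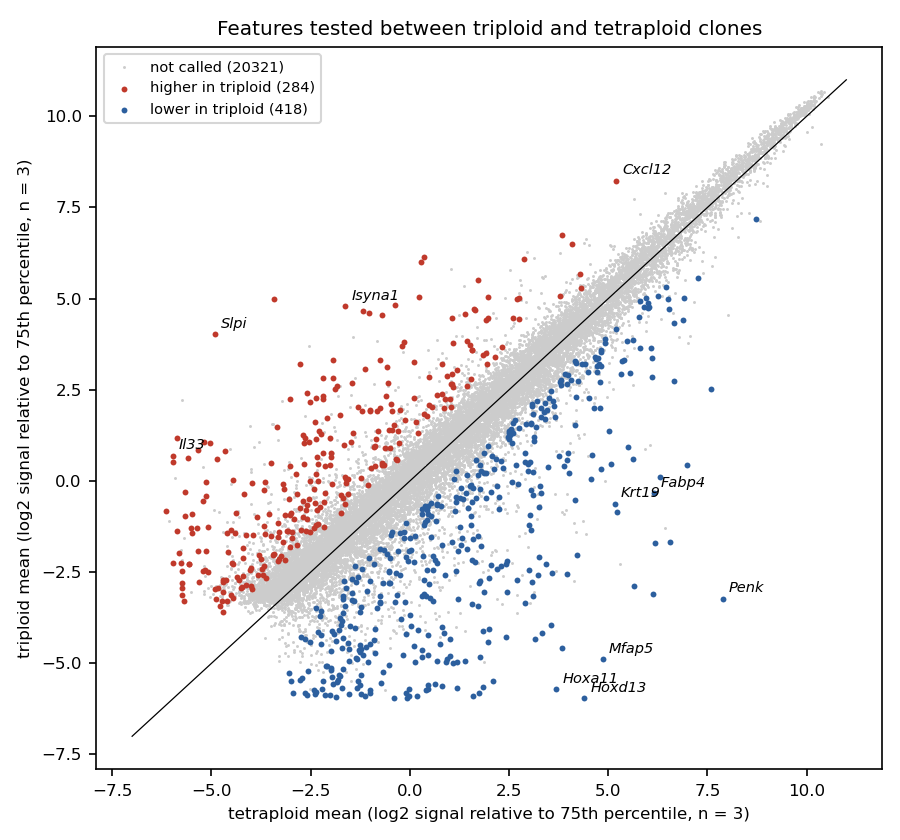
Mean level in tetraploid clones (x axis) against mean level in triploid clones (y axis) of the 21023 features tested, as log2 signal minus the array's 75th percentile, 3 clones a group. The 284 features called higher in triploid clones are red and the 418 called lower blue; the called features lie away from the line of equality, and those at the lower edge are not well above background in 1 group.

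Posterior genes of the Hoxa and Hoxd clusters were lower in triploid than in tetraploid clones. Of 16 posterior HOX transcripts on the array, 9 could be tested, 7 of them only through the tetraploid clones, so that these 7 had to differ. The 8 called members, all lower in triploid clones, were Hoxa9, Hoxa11, Hoxa13, Hoxd10, Hoxd11, Hoxd12, Hoxd13 and Hoxa11os, the RNA made from the strand opposite Hoxa11. They are 88.9% of those tested, against 1.99% of all features called lower. Since most of them entered only through the tetraploid clones, that share tests nothing. Hoxc12 was not called (difference 0.51), and the other 7, which include Hoxb9, Hoxb13, Hoxc9, Hoxc10, Hoxc11 and Hoxc13, all dark in every tetraploid clone, did not reach the filter. Paralogues 9 to 13 act in the hind part of the trunk and, in the Hoxa and Hoxd clusters, along the growing limb, with Hoxa13 and Hoxd13 marking the future hand and foot. The promoters of the 2 coding members with the largest difference, and of Hoxd4, a gene of the same cluster as Hoxd13 that differed the other way, are shown from 250 bases before to 50 after the annotated start (RefSeq sequences, build GRCm38.p6, 5′ to 3′ on the gene's strand). Capitals mark each match, on either strand, to TATAAA (the TATA box), GGGCGG (the GC box) or CCAAT, which 13.6, 35.7 and 37.4% of the 32851 promoters in the table hold; neighbouring matches can overlap.
Hoxd13 (chr2:74667975-74668274, plus strand): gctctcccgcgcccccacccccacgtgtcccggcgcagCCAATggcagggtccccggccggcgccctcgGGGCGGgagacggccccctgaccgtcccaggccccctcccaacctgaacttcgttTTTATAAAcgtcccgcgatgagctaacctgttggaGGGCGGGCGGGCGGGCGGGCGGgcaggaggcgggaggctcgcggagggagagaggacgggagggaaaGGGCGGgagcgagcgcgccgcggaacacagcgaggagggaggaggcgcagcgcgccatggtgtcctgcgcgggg
Hoxa11 (chr6:52245761-52246060, minus strand): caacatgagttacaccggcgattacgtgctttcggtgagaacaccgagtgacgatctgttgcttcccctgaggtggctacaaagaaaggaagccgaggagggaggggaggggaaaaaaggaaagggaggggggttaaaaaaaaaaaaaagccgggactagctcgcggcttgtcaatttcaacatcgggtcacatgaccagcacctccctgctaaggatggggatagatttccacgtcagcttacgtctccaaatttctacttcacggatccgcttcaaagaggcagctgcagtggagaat
Hoxd4 (chr2:74721728-74722027, plus strand): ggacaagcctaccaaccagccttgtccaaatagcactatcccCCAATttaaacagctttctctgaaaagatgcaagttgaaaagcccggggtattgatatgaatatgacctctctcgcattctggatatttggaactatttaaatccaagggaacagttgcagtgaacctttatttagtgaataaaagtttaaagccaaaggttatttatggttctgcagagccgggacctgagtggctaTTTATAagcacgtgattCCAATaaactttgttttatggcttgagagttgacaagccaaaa
Hoxd13 had 37 CpG dinucleotides in this window with 7 GC box, 2 TATA box and 1 CCAAT matches. Hoxa11 had 15 CpG and none of the 3 motifs, and Hoxd4 had 4 CpG with 1 TATA box and 2 CCAAT matches. The median over the tested genes that have 1 promoter in the table was 21 CpG. Of those promoters 7.92% held the TATA box, 65.1% the GC box and 39.5% CCAAT. A match is a description of letters and not of a bound factor.

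Hoxd13 had levels of -5.81, -6.12 and -5.92 in triploid clones 1, 2 and 3 and 4.33, 4.23 and 4.62 in tetraploid clones 1, 2 and 3. No triploid clone was above background and every tetraploid clone was bright, so the groups were far apart; the signal was at least 286-fold higher in tetraploid clones (difference -10.34 ± 0.77 SE, n = 3 and 3, adjusted p = 0.000555), the bright group's mean being set against the lowest signal that counts as above background on the dark arrays. Hoxa11, which patterns the middle segment of the limb and the uterus, read -5.59, -5.84 and -5.72 in triploid against 3.20, 4.01 and 3.84 in tetraploid clones. It was the same picture, dark in every triploid clone, at least 175-fold higher in the tetraploid group (adjusted p = 1.93e-05). Hoxa11os, at -2.85, -3.02 and -3.44 against 5.92, 6.35 and 6.13, was faint but above background in 2 triploid clones. Hoxd10, Hoxd11, Hoxd12 and Hoxa13 were also dark in all triploid clones, with signal at least 35.7-, 31.0-, 13.5- and 26.1-fold higher in tetraploid ones. A second Hoxa13 probe, above background on 2 of the 6 arrays, differed by -1.58. Hoxa9 was the one member bright on all 6 arrays and differed least among the 8, by -2.40 ± 0.27 (adjusted p = 0.00384). All 8 calls were held, with a highest adjusted p of 0.0386 for Hoxd12 without tetraploid clone 3. The median difference of the 9 tested members relative to all features was -6.33, or -5.12 with the dark genes at their bounds; since 7 of them entered the test only through the tetraploid clones, these figures describe them and test nothing.

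The diploid clones were on the tetraploid side for these genes, with mean levels of 3.25 ± 1.99 (SD, n = 3) for Hoxd13 and 2.43 ± 0.83 for Hoxa11. Among the anterior and central HOX genes, 10 of 23 were tested and 2 were higher in triploid clones (20% of those tested, against 1.35% of all features). Hoxb2, which acts in the hindbrain, was dark in every tetraploid clone and at least 41.7-fold higher in triploid ones (adjusted p = 0.0492; 0.159 without tetraploid clone 3). Hoxb2 and Hoxb4 entered the test only through the triploid clones, so the share of 20% describes the list and tests nothing. Hoxd4 was 3.65 ± 0.74 higher (adjusted p = 0.0334; 0.115 without triploid clone 3), and Hoxd3os1, an antisense RNA of the same cluster, 3.91 ± 0.79 higher (adjusted p = 0.0324; 0.111 without triploid clone 3). The other anterior and central genes tested did not pass, among them Hoxb4, which differed by 6.01 ± 1.59 (adjusted p = 0.0716), Hoxa3 by 2.71 ± 0.63 (0.0508), Hoxa7 by -2.67 ± 0.65 (0.0589) and Hoxd8 by -0.04 ± 0.44 (0.966). Hoxb4 passed without diploid clone 3, Hoxa3 without diploid clone 2 or 3, and Hoxa7 without tetraploid clone 2 or triploid clone 1. Within the Hoxd cluster the sign of the difference thus turned between Hoxd4 and Hoxd10, with Hoxd8 near 0 and Hoxd9 not tested.

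**Figure D2:**
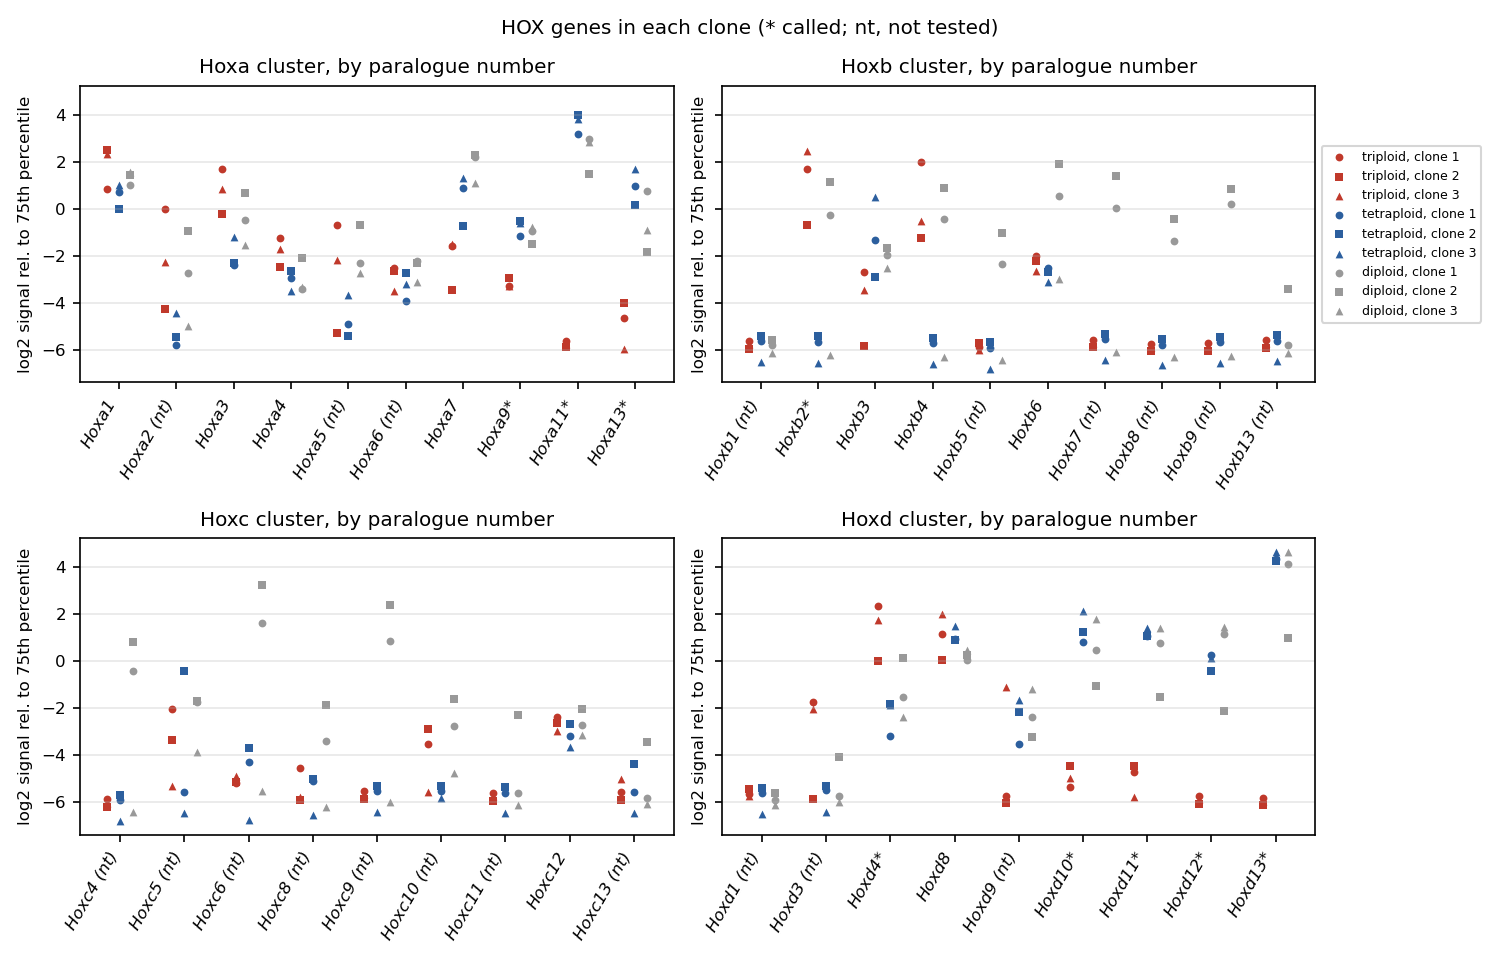
Level of each HOX gene in each clone, by cluster and paralogue number (y axis, log2 signal minus the array's 75th percentile; red triploid, blue tetraploid, grey diploid; circle, square and triangle are clones 1, 2 and 3). Asterisks mark called genes and nt those not tested; Hoxd10 to Hoxd13 and Hoxa11 and Hoxa13 lie at the bottom of the range in all triploid clones and well above it in all tetraploid clones.

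Outside the HOX clusters the largest lower differences included Penk, Mfap5, Rspo2, Col10a1 and Aqp1. Penk, the precursor of enkephalin peptides, read 0.81, -5.80 and -4.68 in triploid and 7.79, 7.30 and 8.56 in tetraploid clones. Triploid clone 1 lay between the other triploid clones and the tetraploid group but overlapped neither (difference -11.11 ± 2.11, adjusted p = 0.0280; 0.102 without tetraploid clone 3). Mfap5, a microfibril protein of elastic tissue, read -3.96, -5.63 and -5.04 against 5.06, 2.89 and 6.63. It was dark in each triploid clone and at least 396-fold higher in the tetraploid group (adjusted p = 0.00129), and the call was held. Smoc2, a matricellular protein, differed by -7.88 ± 0.72 (adjusted p = 0.00204), and Col10a1, the collagen of hypertrophic cartilage, by -8.40 ± 0.84 (adjusted p = 0.00218); both calls were held. Ahrr, the repressor of the aryl hydrocarbon receptor, and Cav3, the caveolin of muscle, were dark in all triploid clones, at least 57.7-fold and 45.3-fold higher in tetraploid ones, and held. A second Ahrr probe, above background on 1 of the 6 arrays, differed by -1.84. Rspo2, a secreted amplifier of Wnt signalling, Aqp1, a water channel, and Hpgd, which degrades prostaglandins, differed by -8.53, -8.23 and -7.49 and lost their call in 3 of the 9 fits each, with adjusted p up to 0.0746 without triploid clone 3, 0.0733 without tetraploid clone 3 and 0.0593 without tetraploid clone 3. In Rspo2 and Aqp1, as in Penk, triploid clone 1 was the highest of the triploid clones, at 1.24 and 1.42.

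Among the genes higher in triploid clones were a protease inhibitor, a cytokine and enzymes of small-molecule metabolism. Slpi, a secreted inhibitor of neutrophil elastase, read 4.55, 4.13 and 3.42 in triploid and -5.71, -2.80 and -6.26 in tetraploid clones. Every triploid clone was bright and 1 tetraploid clone was faintly above background (difference 8.96 ± 1.30, adjusted p = 0.0109; 0.0523 without tetraploid clone 3). Il33, an alarmin cytokine kept in the nucleus, read -0.62, 1.55 and 1.15 against -5.77, -5.52 and -6.65. It was dark in all tetraploid clones and at least 29.9-fold higher in triploid ones (adjusted p = 0.00212), and held. Isyna1, the enzyme that makes inositol from glucose phosphate, read 3.37, 5.63 and 5.38 against -2.08, -0.78 and -2.02, a difference of 6.42 ± 0.80 that held (adjusted p = 0.00565). Rab38, a small GTPase of melanosome and lysosome-related traffic, was dark in the tetraploid clones, at least 28.7-fold higher in triploid ones and held; its second probe was dark on all 6 arrays. Adam23, Inava, Lsr, Ctla2b, Cp and Tmem37 were also among the 12 largest, with differences of 5.83 to 6.49. Of the 12 largest higher genes, 3 calls were held, against 8 of the 12 largest lower ones; tetraploid clone 3 was the clone whose absence ended the most calls in the higher group, 9 of 12, and tetraploid clones 1 and 3 in the lower, 4 of 12 each.

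**Figure D3:**
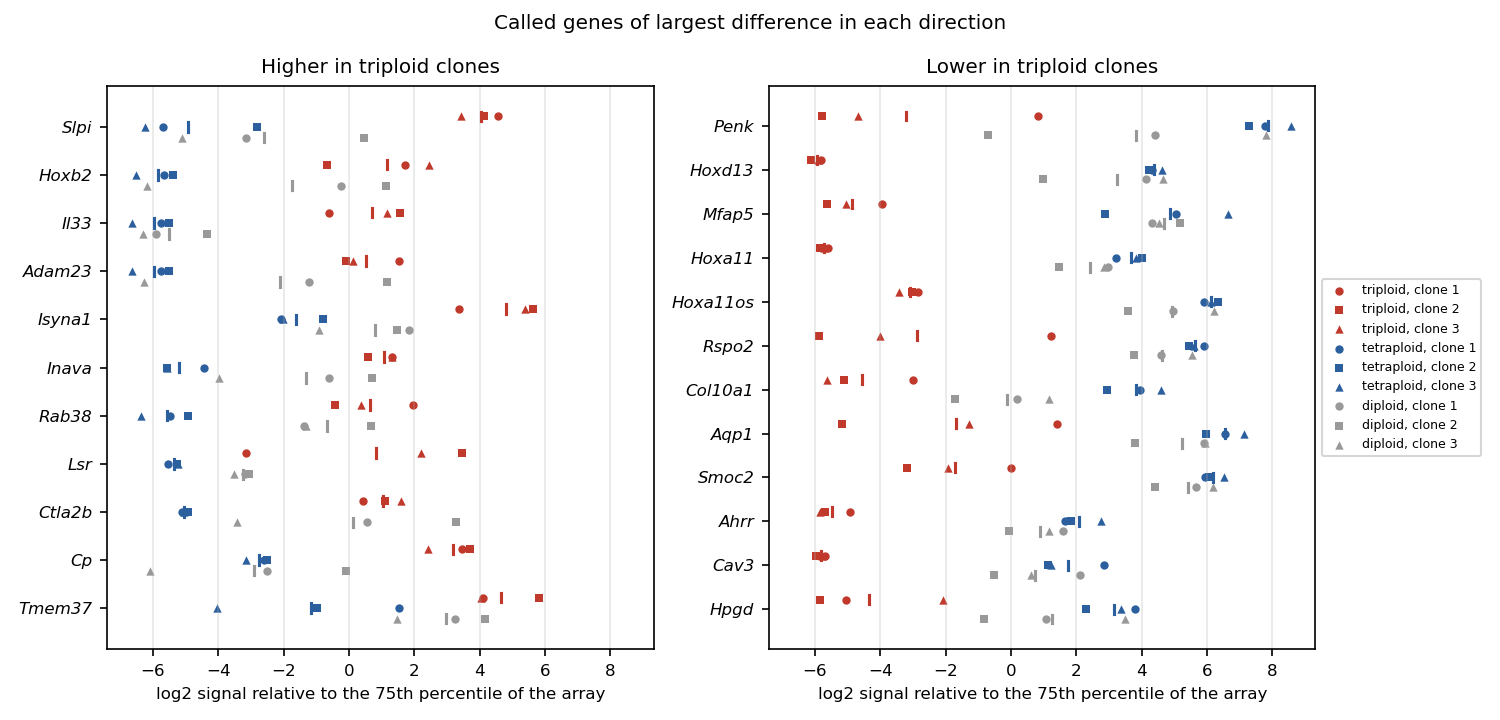
Level of the called genes of largest difference in each direction, 11 higher and 12 lower (x axis, log2 signal minus the array's 75th percentile; red triploid, blue tetraploid, grey diploid; circle, square and triangle are clones 1, 2 and 3, the vertical bar is the group mean, n = 3). Triploid and tetraploid clones do not overlap for any gene drawn, while the diploid clones often span the gap.

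Matrix genes were the second group with a large share of calls. Of the 51 elastic fibre, proteoglycan and matricellular genes tested (56 on the array), 15 (29.4%) were lower in triploid clones, against 1.99% of all features, and none higher, with a median of -1.43 relative to all features and 42 members under the median of all features. Of the 51, 38 were well above background on all 6 arrays. The others passed the filter only through the triploid or only through the tetraploid clones. With signal required on all 6 arrays, 10 were called lower. The called members of the main fit differed by -1.53 to -9.74. They include Fbln5 and Loxl1, which assemble elastic fibres, Omd, Ogn, Aspn and Lum, small leucine-rich proteoglycans that bind collagen, and Comp and Thbs1, pentameric and trimeric thrombospondins. Aspn differed by -7.49 ± 1.21 (adjusted p = 0.0157; 0.0703 without tetraploid clone 3), and Comp was at least 23.3-fold lower and held. The count was 8 without tetraploid clone 1, 6 without tetraploid clone 3 and 5 without triploid clone 2 or triploid clone 3. Of 22 collagens, Col10a1 and Col18a1 were lower (9.09%, against 1.99% of all features), and the median of the 22 was -0.28 relative to all features. Matrix proteases and their inhibitors went both ways, with Slpi, Adam23 and Mmp10 higher and Adam8, Mmp11 and Mmp14 lower among 30 tested (20% called, against 3.34% of all features). Mmp10, a stromelysin, was at least 9.85-fold higher in triploid clones and Adam8, a membrane protease, 4.71 ± 0.59 lower; both were held.

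In the fibroblast and mesenchyme list the called genes were lower in triploid clones, while the list as a whole went both ways. The share called lower was 14.8%, against 1.99% of all features. Of the 27 tested, 18 lay under and 9 above the median of all features, with differences from -6.21 to 3.99. At an unadjusted p under 0.05 in limma, 11 were lower and 3 higher. Lum and Meox2 passed the filter only through the tetraploid clones. In the fibroblast and mesenchyme list, 4 of 27 were lower: Ly6a, the surface antigen Sca-1 (difference -6.21 ± 0.98, adjusted p = 0.0141; 0.0652 without tetraploid clone 3), Lum, Meox2 and Snai2. Snai2, a repressor that maintains the mesenchymal state, read 2.21, 1.80 and 2.81 in triploid against 4.29, 4.38 and 4.87 in tetraploid clones. The gap of 2.24 was small beside the genes above but even, and the call was held (adjusted p = 0.00888). Krt19, a simple-epithelial and mesothelial keratin, read -1.04, 0.48 and -1.31 against 4.92, 5.61 and 4.96. Every clone was bright and the tetraploid group 55.1-fold higher (difference -5.79 ± 0.54, adjusted p = 0.00207, held). Its order over the clones was not that of Wt1, Upk3b and Lrrn4, which were bright in triploid clones 2 and 3, and their part in the result was not tested. Cxadr, a junction protein and virus receptor, was 5.00 ± 0.72 higher in triploid clones (adjusted p = 0.0109; 0.0523 without tetraploid clone 3). Tpm2, Itga5 and Cnn2 were the 3 lower members of 14 smooth muscle and contractile genes (21.4%, against 1.99% of all features). All 14 lay under the median of all features (median -0.96 relative to it).

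Of 18 cartilage, bone and fat genes, 4 were lower and 1 higher (27.8% called, against 3.34% of all features). Fabp4, a fatty acid carrier of fat cells, read 0.81, -1.65 and -0.16 in triploid and 6.07, 6.19 and 6.22 in tetraploid clones. The tetraploid clones were nearly identical and the triploid clones varied more without reaching them (difference -6.49 ± 0.82, adjusted p = 0.00566, held). Pparg, the nuclear receptor that directs fat cell formation, was 3.29 ± 0.55 lower (adjusted p = 0.0188; 0.0752 without tetraploid clone 3). Runx1, better known from blood formation and early cartilage, was 2.76 higher. In bulk RNA, fewer cells of a type and less RNA per cell cannot be told apart.

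Secreted signals and their modulators were called in several pathways. In the Wnt pathway 5 of 39 genes were lower, Rspo2, Dkk2, Ccn5, Sfrp2 and Lgr4, and 1, the ligand Wnt5b, was higher by 2.75. The share called was 15.4%, against 3.34% of all features. Dkk2, an antagonist that binds Wnt co-receptors, read -2.99, -5.97 and -4.25 in triploid and 1.83, 1.27 and 2.80 in tetraploid clones. It was bright in 1 triploid clone, and the difference of -6.37 ± 0.71 was held (adjusted p = 0.00377). Sfrp2, a decoy for Wnt ligands, was 3.92 ± 0.72 lower (adjusted p = 0.0258; 0.0971 without tetraploid clone 3), so that amplifiers (Rspo2 and its receptor Lgr4) and antagonists (Dkk2, Sfrp2) were lower together. The count of 5 became 8 without triploid clone 1, 3 without triploid clone 2, 2 without tetraploid clone 1 and 1 without tetraploid clone 3 or triploid clone 3. Among growth factors and receptors, Fgf10, a limb and lung bud signal, Pdgfd, Angpt2 and Epha3 were lower and Vegfc higher. These are 5 of 47 (10.6%, against 3.34% of all features). Angpt2, which destabilises vessels, was 3.45 ± 0.42 lower and held. In the growth factor and ERK response list 9.09% of tested members were called, against 3.34% of all features. Of the 33 growth factor and ERK response genes, the feedback inhibitors Dusp6 (2.41 ± 0.48, adjusted p = 0.0315; 0.112 without tetraploid clone 3) and Spred2 (1.17 ± 0.24, adjusted p = 0.0342; 0.119 without triploid clone 3) were higher and Klf2 lower.

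In the TGF-beta and BMP list, 1 of 41 genes (2.44%, against 3.34% of all features), Thbs1, was called, although 35 lay under the median of all features (median -0.59 relative to it). Of the 41, 8 (19.5%, against 21.2% of all features) had an unadjusted p under 0.05, all lower. Bmp2, a bone-inducing ligand, was dark in all triploid clones, with a difference of -5.10 ± 1.30 that did not pass (adjusted p = 0.0658; 0.0159 without diploid clone 2). Grem1, a BMP antagonist, read 5.36, -5.94 and -1.81 in triploid and 2.90, 4.01 and 4.88 in tetraploid clones. Triploid clone 1 was the highest of all 6 and the other triploid clones the lowest, so the groups overlapped (adjusted p = 0.271; 0.00902 without triploid clone 1). None of 25 YAP and Hippo genes was called in limma, with 6 (24%) at an unadjusted p under 0.05, but without triploid clone 1 limma called 3 of 26, Amot, Ankrd1 and Stk4, in a fit that called 7.66% of all features.

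Acute-phase and inflammatory genes were among those higher in triploid clones. Of 22 acute phase, complement and iron genes tested, Cp, Hp, Saa3 and Slc40a1 were higher (18.2%, against 1.35% of all features) and none lower. The median of the 22 was 0.58 relative to all features, and 16 of them were well above background on all 6 arrays. Hp, Saa3 and Slc40a1 passed the filter only through the triploid clones, where they are high, so the share tests nothing. With signal required on all 6 arrays, 2 were called higher. Hp, the haemoglobin scavenger haptoglobin, read 2.07, 3.75 and 1.14 in triploid and -1.10, -3.31 and -2.12 in tetraploid clones. All triploid clones exceeded all tetraploid clones (difference 4.50 ± 0.68, adjusted p = 0.0126; 0.0529 without tetraploid clone 3). Saa3, an acute-phase serum amyloid, was dark in the tetraploid clones, at least 6.84-fold higher in triploid ones and held. Cp, the copper ferroxidase ceruloplasmin, was 5.96 ± 1.18 higher (adjusted p = 0.0315; 0.113 without tetraploid clone 3), and Slc40a1, the iron exporter ferroportin, at least 8.85-fold higher (adjusted p = 0.0492; 0.153 without triploid clone 3). The count of 4 was 7 without triploid clone 1, 2 without diploid clone 1, tetraploid clone 1, triploid clone 2 or triploid clone 3, and 1 without tetraploid clone 3. Among 32 NF-kB targets and cytokines, Il33, Cxcl12 and Cxcl16 were higher (9.4%, against 1.35% of all features). The list median was 0.03 relative to all features, with 17 members above and 15 under the median of all features. Differences in the list ran from -7.58 to 6.68, and Il33 and Cxcl16 passed the filter only through the triploid clones. Cxcl12, the chemokine that retains blood stem cells in marrow, read 8.10, 8.21 and 8.40 against 4.50, 5.92 and 5.17. The triploid clones were nearly equal and each above every tetraploid clone, an 8.22-fold difference (adjusted p = 0.0265; 0.0963 without triploid clone 3). Interferon genes showed 1 call of 29, Ifit3, lower by 3.58, and antigen presentation 1 of 20, the class Ib molecule H2-M3, higher by 3.83, both shares (3.45 and 5.00%) near the 3.34% of all features. Mt2, a metal-binding metallothionein, was 2.43 ± 0.43 higher (adjusted p = 0.0232, and 0.0882 without triploid clone 2). Ahrr and the glutathione transferases Gsta1 and Gsta2 were lower, among 29 metallothionein and NRF2 genes (13.8% called, against 3.34% of all features).

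Of 30 position and limb transcription factors, 5 were called (16.7%, against 3.34% of all features). Tbx15, a T-box factor of skin and limb skeleton, read 0.62, -0.57 and 1.19 in triploid and 3.64, 4.20 and 3.85 in tetraploid clones. The groups were separate by more than 2 log2 units and the call was held (difference -3.49 ± 0.43, adjusted p = 0.00565). Msx1 and Msx2, homeobox factors of the limb bud and face, were 3.96 and 2.33 lower, the first with an adjusted p of 0.0468 (0.147 without tetraploid clone 3). Meis2, a HOX cofactor of the near part of the limb, was 3.24 ± 0.53 higher (adjusted p = 0.0171; 0.0704 without tetraploid clone 3) and Emx2, of the urogenital tract and forebrain, 2.48 ± 0.55 higher (adjusted p = 0.0441; 0.140 without triploid clone 3).

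**Figure D4:**
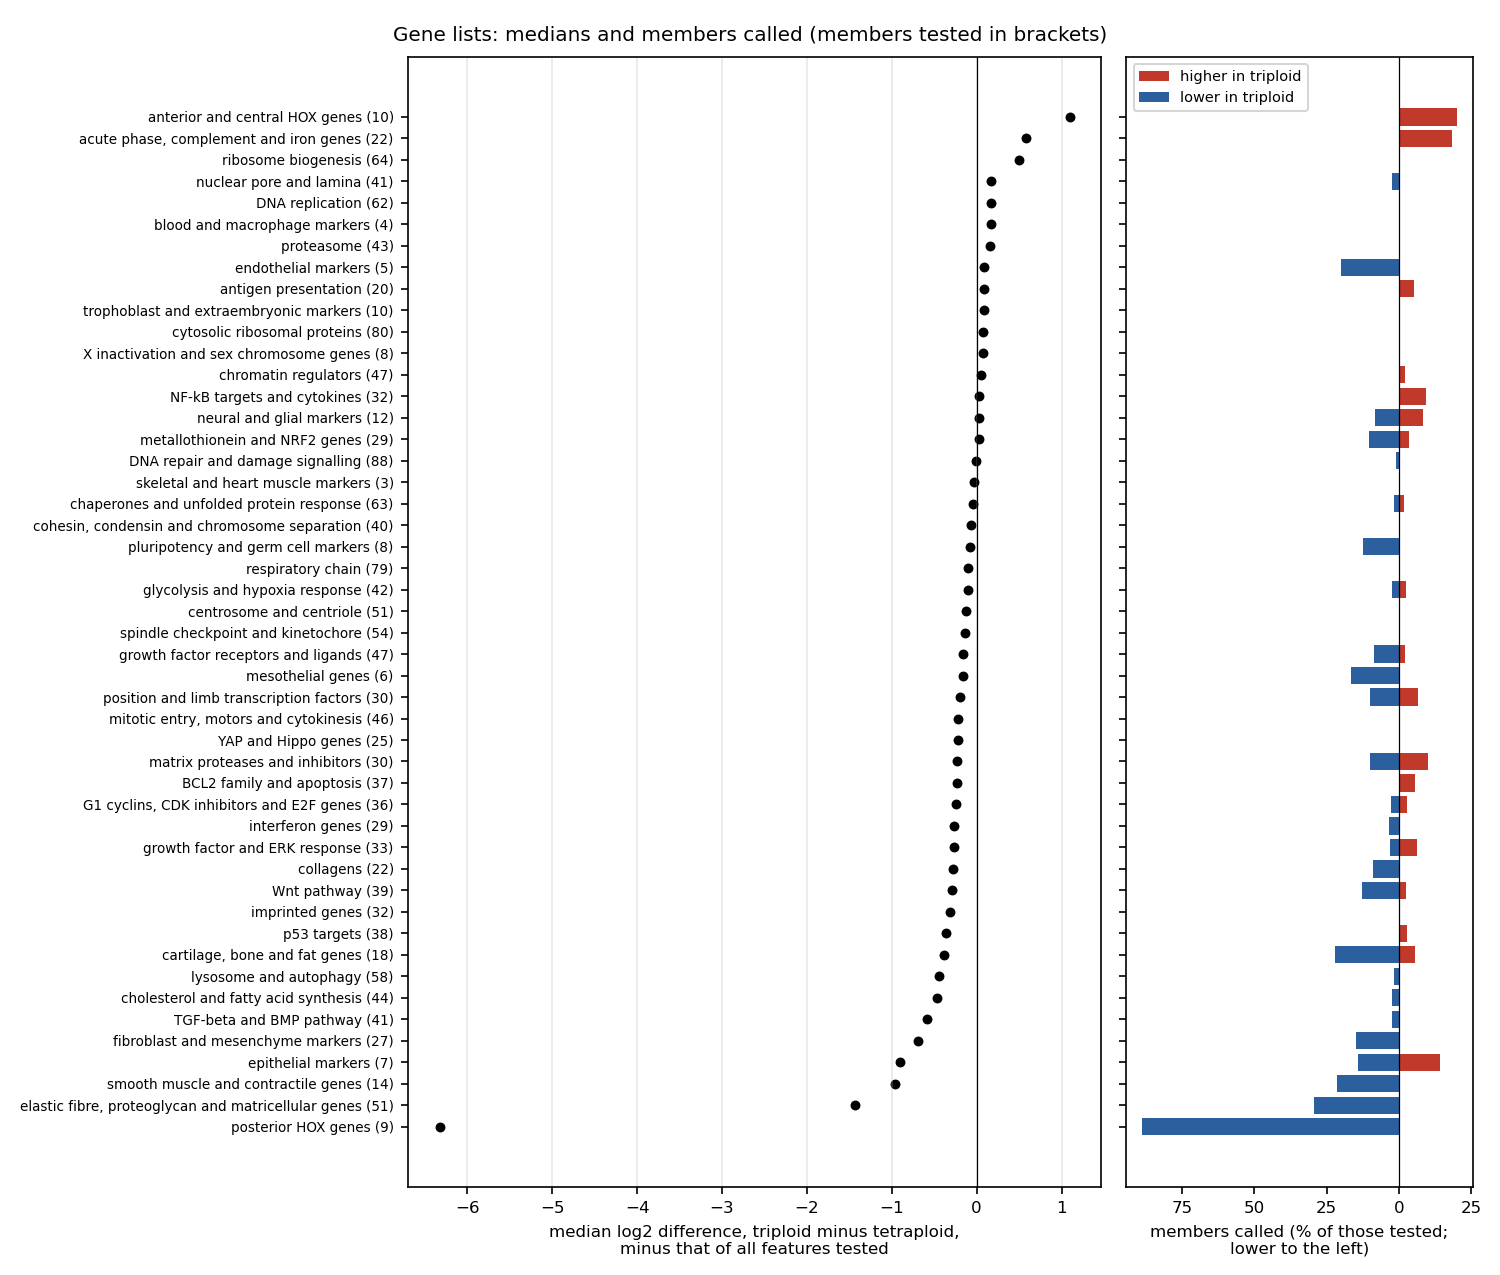
Left, median log2 difference (triploid minus tetraploid) of each of 48 gene lists minus that of all features tested, with the number of members tested in brackets; right, percent of tested members called higher (red, to the right) or lower (blue, to the left) in triploid clones. Posterior HOX genes lie at -6.33 and elastic fibre, proteoglycan and matricellular genes at -1.43, while the lists of cell division, ribosome, proteasome and respiratory chain genes have no called member with all clones in the fit.

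No gene in 5 lists of the cell division machinery passed the threshold with all clones in the fit. None of 253 tested genes of DNA replication, spindle checkpoint and kinetochore, cohesin and condensin, centrosome, and mitotic entry and cytokinesis was called in limma; 39 (15.4%) had an unadjusted p under 0.05, against 21.2% of all features, and their differences ran from -1.03 to 1.43. Without tetraploid clone 2 limma called 5 of 254 (Cdc7, Cdt1, Mcm10, Orc1 and Recql4; 1.97%, against 5.17% of all features) and without triploid clone 1 it called 3 (Anapc1, Hjurp and Ninl; 1.18%, against 7.66%). The nearest to the threshold was Ninl, a centrosomal ninein-like protein, at 1.43 ± 0.35 (adjusted p = 0.0564). Mcm3, a subunit of the replicative helicase, read 4.84, 5.83 and 6.00 in triploid and 4.42, 5.16 and 3.91 in tetraploid clones. The groups overlapped, since tetraploid clone 2 was above triploid clone 1 (difference 1.06 ± 0.42, adjusted p = 0.191). Among 36 G1 cyclin, CDK inhibitor and E2F genes, Tfdp2, a partner of E2F factors, was 1.35 ± 0.24 higher (adjusted p = 0.0214; 0.0889 without triploid clone 3) and Rbl2, the pocket protein p130, 1.43 ± 0.32 lower (adjusted p = 0.0460; 0.148 without triploid clone 2). Of 38 p53 targets, Plk3 was higher by 1.11 and no other was called; Cdkn1a, the CDK inhibitor p21, differed by -2.01 ± 0.58 (adjusted p = 0.0912; 0.0438 without triploid clone 1). Bcl2l11 and Bmf, which encode the pro-death BH3 proteins Bim and Bmf, were 2.20 ± 0.33 and 1.81 ± 0.27 higher among 37 BCL2 family and apoptosis genes (adjusted p = 0.0123 and 0.0118, and 0.0523 without tetraploid clone 3 and 0.0531 without triploid clone 3). The called shares of the G1 cyclin, p53 target and BCL2 lists were 5.56, 2.63 and 5.41%, near the 3.34% of all features.

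Biosynthetic and catabolic lists had medians away from that of all features with few or no calls. The 64 ribosome biogenesis genes had a median of 0.50 relative to all features and 56 lay above that of all features, yet limma called none; 19 (29.7%, against 21.2% of all features) had an unadjusted p under 0.05, all higher in triploid clones. Without tetraploid clone 2 limma called 6 of the 64, or 9.38% against 5.17% of all features, and in 4 other fits 1. Nop56, a core protein of small nucleolar particles, read 7.82, 7.88 and 8.01 in triploid and 6.67, 7.27 and 5.39 in tetraploid clones. The triploid clones were nearly equal and above each tetraploid clone, whose spread was wide (difference 1.46 ± 0.41, adjusted p = 0.0807; 0.0315 without tetraploid clone 2). The 80 cytosolic ribosomal protein genes had a median of 0.08 relative to all features with 0 calls (1 of 81, Rps4l, without tetraploid clone 2) and 0 unadjusted p under 0.05, and the 79 respiratory chain genes -0.10 with 0 calls and 1 unadjusted. Lysosome and autophagy genes (median -0.44 relative to all features, 52 of 58 under it) and cholesterol and fatty acid synthesis genes (-0.47, 36 of 44 under it) each held 1 called gene, Psap, the saposin precursor, and Nsdhl, a sterol dehydrogenase, both lower. These are shares of 1.72 and 2.27%, against 3.34% of all features. In glycolysis and hypoxia response, Pfkfb3, which makes the activator of phosphofructokinase, was 2.76 ± 0.42 higher (adjusted p = 0.0126; 0.0536 without triploid clone 3) and Hk1, hexokinase 1, 1.54 ± 0.24 lower (adjusted p = 0.0141; 0.0625 without triploid clone 2).

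Some imprinted genes varied widely within the triploid group. None of 32 was called in limma, with 10 (31.2%, against 21.2% of all features) at an unadjusted p under 0.05. Without triploid clone 1 limma called 5 of 34, Ddc, Gab1, Mest, Peg3 and Plagl1 (14.7%, against 7.66% of all features), and without tetraploid clone 2 it called 1 of 35. Mest, expressed from the paternal copy, read 4.54, -4.49 and -1.09 in triploid and 3.22, 2.20 and 5.56 in tetraploid clones (adjusted p = 0.252; 0.0115 without triploid clone 1). Plagl1, a paternally expressed zinc finger factor, read 3.65, -4.84 and 1.18 against 4.61, 4.61 and 5.50 (adjusted p = 0.134; 0.0240 without triploid clone 1). In both, triploid clone 2 was the lowest clone by several units and triploid clone 1 lay near or within the tetraploid range.

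Along the chromosomes, gene levels were centred per gene and per clone and their median taken for each chromosome; with 3 clones against 3 the exact two-sided permutation test cannot go below p = 0.1, and 20 chromosomes were examined, so no chromosome passes (adjusted p 0.4 at the lowest). Chromosome 10 had the largest called share, 48 of 576 named genes (8.33%, against 4.05% of all named genes), 46 of them lower in triploid clones. Its medians were -0.17, -0.09 and -0.22 in triploid and 0.19, 0.23 and 0.06 in tetraploid clones. All triploid clones were below all tetraploid ones, with a median gene difference of -0.32 relative to all named genes (-0.41 without tetraploid clone 3). The 46 lower genes include Col10a1, S100b, Lum, the glutathione transferases Gstt1 and Gstt3, Col18a1, Hk1 and Cnn2, and the 2 higher ones are Dusp6 and Slc16a10, a transporter of aromatic amino acids (the Gstt genes and Slc16a10 were picked after their values were seen). Chromosomes 2, 6, 17 and 19 had triploid medians above all tetraploid ones, with gene differences of 0.20, 0.14, 0.11 and 0.22 relative to all named genes. On the X chromosome triploid clone 1 stood at 0.22 and triploid clones 2 and 3 at -0.46 and -0.29, beside 0.13 to 0.17 in the tetraploid clones. Triploid clone 1 alone was low on chromosome 12, at -0.44. The part of such chromosome-wide shifts in the calls of single genes was not tested.

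**Figure D5:**
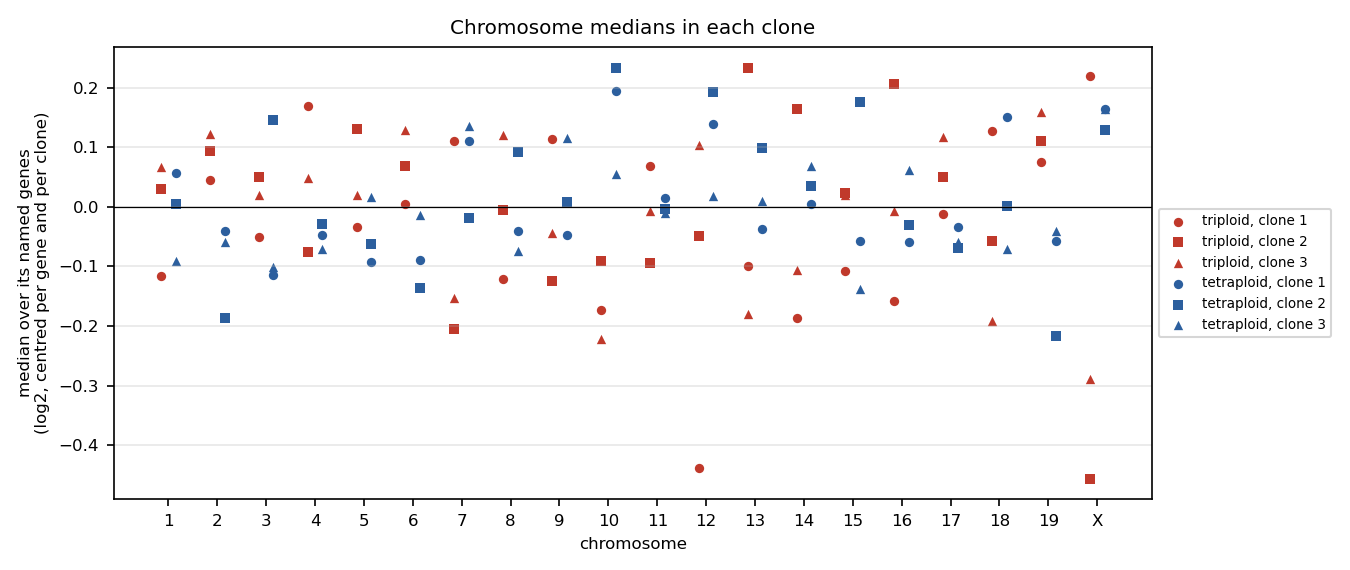
Median over the named genes of each chromosome in each clone (y axis, log2 level centred per gene over the 6 clones and per clone over all named genes; red triploid, blue tetraploid; circle, square and triangle are clones 1, 2 and 3). Triploid clones lie below tetraploid clones on chromosome 10 and above them on chromosomes 2, 6, 17 and 19; triploid clone 1 at -0.44 on chromosome 12 and triploid clone 2 at -0.46 on X are the points farthest from 0.

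The diploid clones, which share the p53-/- genotype, give one more level to set beside the comparison; they also supply part of the spread estimate, so this is a description. Their mean lay between the triploid and tetraploid means in 85.2% of the called features, against 38.5% of all features, and nearer to the tetraploid mean in 69.7%, against 54.5% of all. Called features were selected for a gap between the triploid and tetraploid means, and a further mean falls into a wide gap more often. The contrast of 85.2 with 38.5% therefore tests nothing. Among called genes differing by more than 2 log2 units, 6 with the smallest gap between the diploid and the tetraploid mean were Trp53i11, Atf7ip2, Lpin3, Fhl1, Smpdl3a and Zbed5. Lpin3, a phosphatidate phosphatase, read -2.37, -3.23 and -4.10 in triploid and 1.33, 0.26 and 2.02 in tetraploid clones, and 1.18 ± 0.49 (SD, n = 3) in diploid ones. The triploid clones were the low ones, and the call was held (difference -4.44 ± 0.53, adjusted p = 0.00495). The 6 with the smallest gap between diploid and triploid mean were Gm4907, Tes, Galnt9, Zfp462, Ogn and Vwf. Tes, a focal adhesion protein, read 4.55, 4.53 and 4.15 in triploid, 2.29, 2.55 and 0.90 in tetraploid and 4.51 ± 0.53 in diploid clones. Here the tetraploid clones were the low ones (difference 2.50 ± 0.44, adjusted p = 0.0214; 0.0798 without triploid clone 2).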

How the data were processed

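Total RNA of 9 p53-/- mouse embryonic clones (3 diploid, 3 triploid, 3 tetraploid) was labelled with Cy3 and hybridised to 1-colour Agilent arrays of 62976 spots. The authors deposited scanner output made with Agilent Feature Extraction 10.7.3.1, per the file headers, and the processed signal used here is an intensity that the software had already corrected for background. The authors also deposited a value table of log2 values; set against the scanner values it equals log2 processed signal minus an array constant and minus diploid clone 1, so it was used as an alternative, with its direction thereby known. The array design is annotated to mm9 per the file headers; no coordinates of it are printed.

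Control spots and outlier-flagged spots were left out, spots of a probe averaged, and log2 signal centred on each array's 75th percentile. Of 55681 probes 26413 have a gene symbol, updated through the RefSeq gene table (GRCm38.p6), and the brightest probe stands for a gene. The contrast was fitted with limma 3.58.1 in R 4.3.3 (lmFit and eBayes) over all 9 arrays, so the diploid clones share in the estimate of the spread, with Benjamini-Hochberg adjustment over 21023 features; a call is an adjusted p under 0.05. An above-background flag on at least 0.5 of a probe's spots counted as well above background. The fit was tested on simulated data. All 6 triploid and tetraploid arrays lie on 1 slide; the other slide holds only diploid clone 1, so a slide block equals leaving that clone out. Clone numbers do not pair the groups.

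The members and gene lists were chosen with earlier results of these data known. The genes named are the 12 largest called differences per direction, up to 4 called members per list (or the 2 largest where fewer than 2 were called), all HOX genes, sex chromosome genes and Trp53, and 6 genes nearest the diploid mean on each side; other called members of a list are named to complete its count, and those are chosen after their values were seen. Of the 12 largest higher genes, 1 is counted but not reported here. Alternatives were other scalings, normexp on the median signal (the mean signal was not used here), other filters, fits without the diploid arrays, blocks, and leaving out each clone.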

Additional observations from a re-analysis of the deposited data

How the results depend on the processing

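The count of 702 called features (284 higher, 418 lower) stayed within 1.5 times under 75th-percentile centring on detected probes, quantile normalization, normexp, the filter over 3 groups, every probe tested, a trended robust prior and the authors' deposited table, and in the fit with a replicate block, which called 578 (219 higher, 359 lower). Clone numbers do not pair the groups (correlations of deviations 0.057, 0.048 and 0.041), although each triploid clone correlated best with its own number, a hint from the data and not the design. Centring on the median left 164 higher. With no filter 198 were called (77 higher, 121 lower), with signal on all 6 arrays 410 (164 and 246), in the 6 arrays alone 461 (184 and 277) and with the slide as a block 416 (168 and 248); the last also equals leaving out diploid clone 1. Leaving out each clone gave 162 to 1675 (67 to 806 higher, 95 to 869 lower). Posterior HOX genes called numbered 1 with signal required on all 6 arrays, where 1 is tested. Elastic fibre, proteoglycan and matricellular genes called were 6 with no filter, 10 with signal on all 6 arrays and 5 to 21 when each clone was left out. Wnt genes called were 3 with no filter, 2 with signal on all 6 arrays and 1 to 8 when each clone was left out. Acute phase, complement and iron genes called were 2 with no filter, signal on all 6 arrays, the slide block or the trended prior. They were 1 to 7 when each clone was left out. With no filter the chromosome medians relative to named genes became 0.078 for chromosome 2, 0.017 for 6, -0.18 for 10, 0.061 for 17, 0.11 for 19 and -0.036 for X; chromosome 10 was -0.41 to -0.29 when each clone was left out. Of 132 described called genes, 35 stayed called in every fit without 1 clone, and 0 turned in direction. Hoxd8, not called, ran from -0.50 to 0.48 when each clone was left out, and Tnnt1, not called (0.20), from -1.04 to 0.96, and stood at -0.055 when centred on the median; the cause was not tested. Fewer than 4 clones a group and dim signal limit what could be called.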

Other observations

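Probes without a gene symbol split differently from named genes. Of 8889 such features 143 were higher and 68 lower in triploid clones, so 67.8% of their calls were higher against 28.7% among named genes. Features without a symbol were called less often, at 2.37%, against 4.05% of named genes and 3.34% of all features. Predicted RefSeq transcripts had 40 higher and 6 lower among 2483 tested (1.85% called). Probes named only by genome coordinates had 54 higher and 18 lower among 4142 (1.74%), while Ensembl transcripts were even at 24 and 26 among 1385 (3.61%). The median difference was 0.27 without a symbol and 0.04 with one. Within each quintile of mean level the unnamed features had the higher median difference, 0.32 against 0.18 in the dimmest and 0.26 against 0.10 in the brightest. The part of signal level or probe design in this was not tested.

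Many large differences lie outside the gene lists: 398 of the 491 called named genes are in none, 111 higher and 287 lower. Cspg4, the NG2 proteoglycan of pericytes and progenitors, differed by -6.24 (adjusted p = 6.01e-05 in limma), and Cyp26b1, which degrades retinoic acid in the limb bud, by -5.72 (adjusted p = 0.00209); both stayed called in each fit without 1 clone. Higher in triploid clones were Prss12, a serine protease of neurons, by 5.47, Tnfaip6, a hyaluronan-binding protein made in inflammation, by 5.28 and Slc43a1, an amino acid transporter, by 5.13. Slc43a1 stayed called in each fit without 1 clone, while Tnfaip6 lost its call in 5 of these 9 and Prss12 in 3, with adjusted p in limma up to 0.0975 and 0.0614 over all settings. These genes were chosen after their values were seen.

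Some genes of large mean difference were not called, with clones of 1 group far apart. Perp, a desmosome-associated p53 target, read 4.91, 6.91 and -1.94 in tetraploid clones and 0.46, -2.28 and -0.15 in triploid ones (adjusted p = 0.292), tetraploid clone 3 standing apart.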
